A study of Rattus norvegicus with 24 samples.

Results

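The 10 genes described here are Giot1, Opn3, Oacyl, Procr, Arhgdib, Alk, Tent5a, Rnf138l1, Slc45a1 and Sorcs1, genes with a little-known or no settled role in the supraoptic nucleus whose mean signals were higher in water-deprived rats. For the brightest probe set of each gene, the mean with dehydration was 1.45 (Sorcs1, males) to 12.1 (Giot1, males) times the control mean. The 10 genes were chosen by the size of that difference, dehydrated over control, so their dehydrated and control signals are given as a description with no test. Every probe set that carried only 1 of these symbols in the platform annotation was taken, which gave 12 probe sets of 31099 and 10 genes of 14217 with a single symbol. Tent5a had 3 probe sets and every other gene had 1. All 12 passed a filter on low signals in females, and 11 did in males. Affymetrix arrays measured RNA of the supraoptic nucleus of Sprague Dawley rats, and each array held a pool of 5 rats. The samples of a group may be technical as well as biological replicates. Errors and p-values thus measure the spread between arrays, which may be smaller than that between independent pools. The groups used were 4 arrays of females without water for 72 hours, 4 arrays of euhydrated females, 5 arrays of males dehydrated for 3 days and 5 arrays of control males. Males were 10 to 12 weeks old, and the labels used here give no age for the females. Female and male arrays differed in RNA extraction, labelling kit and signal software as well as in sex, so each set was compared with its own controls. The arrays of lactating rats had no values in the table and were not analysed here. Pooled tissue holds many cell types, so a higher signal from more cells of a type and from more RNA per cell cannot be told apart.

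The supraoptic nucleus holds magnocellular neurons that make vasopressin and oxytocin and release them from nerve endings in the posterior pituitary. Loss of water raises plasma osmolality, and these neurons then fire more and make more hormone, with a broad rearrangement of transcription, protein synthesis and secretion. The 10 genes fall into a transcription factor (Giot1), membrane receptors (Opn3, Alk, Procr, Sorcs1), a sugar transporter (Slc45a1), enzymes (Oacyl, Tent5a), a GDP-dissociation inhibitor (Arhgdib) and a relative of a ubiquitin ligase (Rnf138l1).

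The array labelled dehydrated female replicate 5 went against its labels and is left out of all values below unless it is named. Avp, the vasopressin gene, read 50.6 on it, against 3644 to 7666 on the other 8 female arrays, and Oxt, the oxytocin gene, read 26.0 against 3001 to 6698. Xist, which is expressed from the inactive X chromosome, read 2.59 there, and the Y-linked Eif2s3y 242. Both lay near the male arrays, where Xist was 0.400 to 8.0 and Eif2s3y 252 to 391. Avp was 4337 to 5928 on the male arrays. Dehydrated and control arrays were compared with limma, a linear model fitted to every probe set with moderated variances, on log2 signals. In these fits over 21729 probe sets, an adjusted p under 0.05 between dehydrated and control arrays was reached by 2.96% in females and 17.7% in males. The replicate 5 array had a median correlation of 0.815 with the other female arrays, which had 0.925 to 0.973 among themselves. In females 384 passed as higher (1.77%) and 259 as lower (1.19%), and after median centring of the arrays these were 348 and 114. In males 1808 passed as higher (8.32%) and 2038 as lower (9.38%), against 2710.0 and 1091 with that centring.

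Promoter windows of the 10 genes were searched for motifs as a description. That the genes were higher together follows from how they were chosen, and shared regulation was not tested. RefSeq gave a window of 250 bases before to 50 bases after the gene start (build GRCr8) for 9 of the 10 genes, all but Arhgdib. Motifs were searched on both strands as exact letters: the cAMP response element TGACGTCA, the AP-1 site TGANTCA, the C/EBP-ATF element TGATGNAA, the NR4A element AAAGGTCA, the EGR element GCGTGGGCG, and the tonicity element by name. The 3 windows that held a match are printed because they are the ones of the 9 in which these letters occur, and capitals mark the matches.
Giot1, chr7:10886916-10887215, minus strand: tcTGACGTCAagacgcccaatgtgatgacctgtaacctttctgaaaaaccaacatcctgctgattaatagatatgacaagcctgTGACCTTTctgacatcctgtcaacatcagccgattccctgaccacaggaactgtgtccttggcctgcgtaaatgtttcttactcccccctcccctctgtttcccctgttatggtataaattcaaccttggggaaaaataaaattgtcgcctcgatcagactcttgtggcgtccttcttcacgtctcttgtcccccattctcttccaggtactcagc
Procr, chr3:164714477-164714776, plus strand: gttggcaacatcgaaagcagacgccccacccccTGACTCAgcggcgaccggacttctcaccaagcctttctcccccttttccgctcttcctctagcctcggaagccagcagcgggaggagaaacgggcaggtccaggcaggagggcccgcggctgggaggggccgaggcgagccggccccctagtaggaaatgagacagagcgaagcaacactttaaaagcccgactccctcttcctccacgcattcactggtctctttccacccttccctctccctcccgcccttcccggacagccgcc
Slc45a1, chr5:166412134-166412433, minus strand: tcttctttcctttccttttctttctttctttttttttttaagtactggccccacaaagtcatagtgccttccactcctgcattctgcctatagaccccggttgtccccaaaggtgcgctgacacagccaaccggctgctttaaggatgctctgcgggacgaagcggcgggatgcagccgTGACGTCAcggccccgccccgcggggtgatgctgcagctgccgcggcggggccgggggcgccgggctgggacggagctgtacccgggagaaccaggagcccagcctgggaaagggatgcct
The Giot1 window held TGACGTCA starting 248 bases before the gene start and the NR4A letters, on the other strand, starting 166 bases before it. The window of Slc45a1 held TGACGTCA starting 71 bases before the start, and that of Procr held TGACTCA starting 217 bases before it. The full cAMP response element was thus in 2 of 9 windows, against 1.83% of 33469 promoter windows of all genes. The AP-1 letters were in 1 of 9 windows and in 7.33% of all windows, and the NR4A letters in 1 of 9 and in 1.43%. The C/EBP-ATF, EGR and tonicity letters were in 0 of 9 windows, against 3.98%, 0.544% and 5.98% of all windows. The matches do not overlap each other in these windows. The median GC content of the 9 windows was 62.3%, against 51.7% for all. A match describes the letters only.

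Giot1 encodes a zinc finger transcription repressor known from the rat ovary as a gene induced by gonadotropin. Its probe set 1368775_at read 299.7, 199, 215 and 245 on the dehydrated female arrays, against 29.3, 40.0, 22.5 and 20.7 on the female controls. In males the signal was 243, 222, 339, 298 and 282 with dehydration, against 19.7, 12.5, 33.2, 33.0 and 16.2 in controls. No dehydrated array came near a control: the lowest dehydrated value was 4.98 times the highest control in females and 6.69 times in males. The log2 fold change was 2.85 ± 0.19 in females (SE, n = 4 each) and 3.32 ± 0.19 in males (SE, n = 5 each), rank 6 and rank 3 of the 21729 probe sets tested. The control signals are low, and the value added before the log moves these sizes: with 100 in place of 32 added they were 2.43 and 2.80. Of 4 tested genes of the co-repressor complex that KRAB zinc finger proteins recruit (Trim28, Setdb1, Cbx1 and Cbx5), 0 passed in females, where Trim28, the scaffold of that complex, had the smallest p at -0.13 ± 0.13 (limma adjusted p = 0.634). In males Cbx1, a heterochromatin protein, fell by 0.31 ± 0.07 (adjusted p = 0.00911). That call rested on 1 of its 2 probe sets and was lost in a single fit of all groups.

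**Figure D1:**
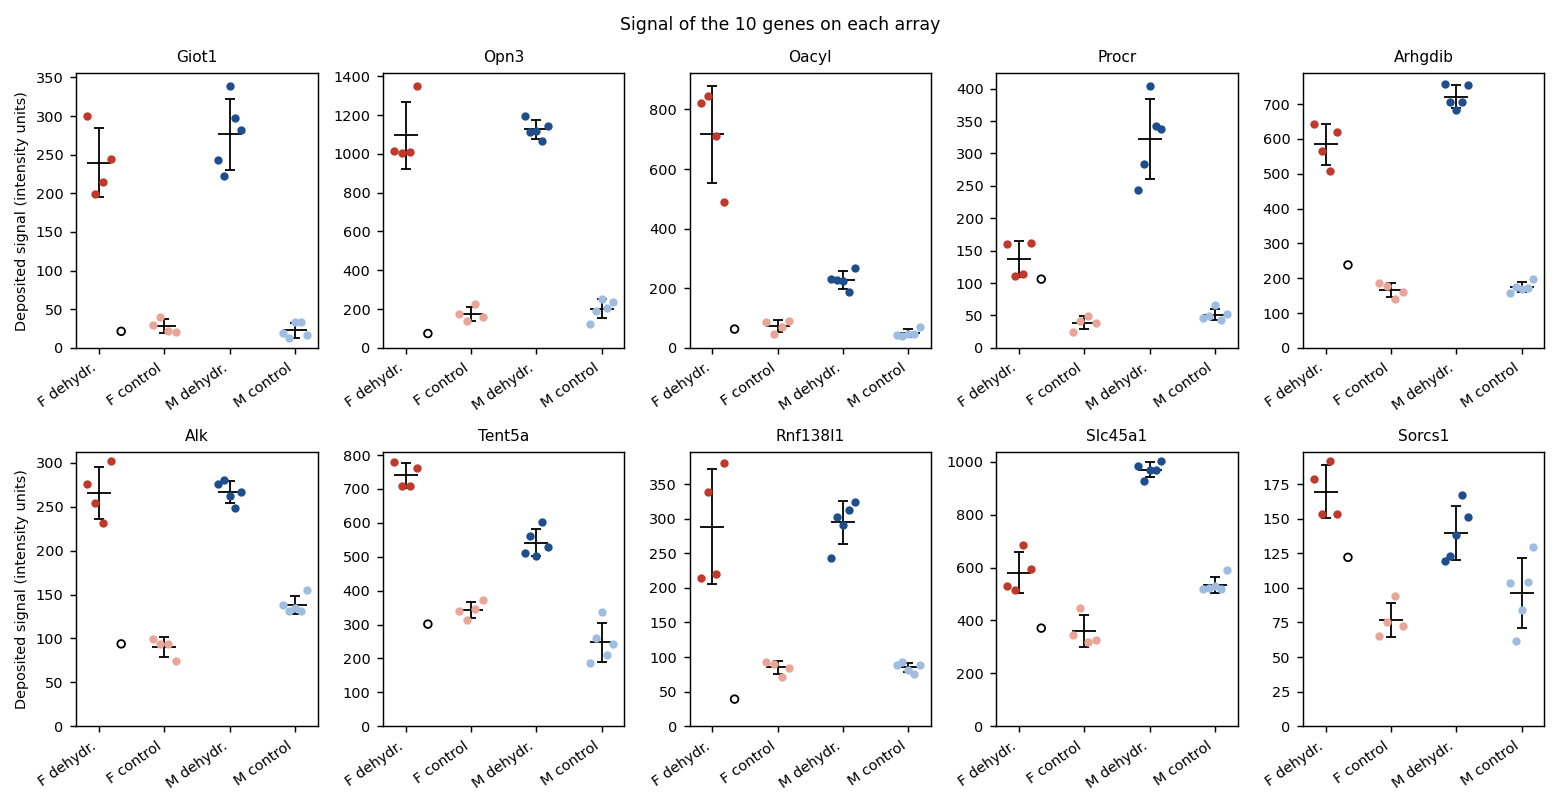
Deposited signal (intensity units) of the main probe set of each of the 10 genes on every array, for dehydrated and control females (F) and males (M), with the mean and SD as black bars. The open circle is dehydrated female replicate 5, which is outside the mean and SD; in every panel except that of male Sorcs1 the filled dehydrated points lie above all their controls.

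Opn3 (encephalopsin), a light-sensing G protein-coupled receptor that is expressed in brain, had some of the most separated signals. Probe set 1393373_at read 1015, 1004, 1011 and 1352 on dehydrated female arrays and 173, 140.3, 228 and 159 on their controls. Dehydrated males gave 1196, 1112, 1118, 1065 and 1143, and control males 123, 192, 251, 204 and 238. Replicate 4 of the dehydrated females stood above the other 3, and the highest control of either set was far below the lowest dehydrated array. The log2 fold change was 2.61 ± 0.15 in females and 2.48 ± 0.14 in males, ranks 7 and 6. Of 6 other opsin genes 2 were tested, and neither passed in either set. Opn1sw, the short-wavelength cone opsin, had the smallest p in both, with 0.55 ± 0.28 in females (adjusted p = 0.315) and 0.55 ± 0.26 in males (adjusted p = 0.168).

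Alk encodes a receptor tyrosine kinase best known from the developing nervous system, with the ALKAL cytokines as ligands and the growth factors midkine and pleiotrophin as proposed ones. Its signal (1382541_at) was 275, 255, 232 and 302 in dehydrated females, against 99.8, 93.4, 93.3 and 74.5 in control females. In males it was 276, 281, 262, 249 and 267 with dehydration, against 138, 131, 134, 131 and 156 in controls. Dehydrated arrays of both sets reached the same range, while the control females lay below all control males. How many of all probe sets separate female from male arrays was not counted, so nothing is read from such separations, here or below. Its log2 fold change was 1.49 ± 0.13 in females and 0.92 ± 0.07 in males. Among 8 tested ligands, relatives and adaptors none rose in either set. Mdk, which encodes midkine, fell by 0.50 ± 0.11 in males (adjusted p = 0.00783) and had -0.52 ± 0.15 in females (adjusted p = 0.079).

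Procr encodes the endothelial protein C receptor, which holds protein C on the cell surface for activation by thrombin bound to thrombomodulin. Activated protein C on this receptor can cleave the thrombin receptor PAR1, the product of F2r. Probe set 1372729_at of Procr read 161, 111, 115 and 162 in dehydrated females and 25.2, 41.5, 49.8 and 38.0 in control females. Male arrays gave 244, 284, 405, 343 and 338 with dehydration and 45.7, 48.7, 65.9, 43.5 and 52.1 without. All dehydrated males were above all dehydrated females, a separation not counted over all probe sets, and the control ranges of the sets overlapped. Its log2 fold change was 1.68 ± 0.20 in females and 2.51 ± 0.13 in males.

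Of the protein C list, F2r rose in both sets. Its signal (1367899_at) was 670.5, 651, 620.0 and 789 in dehydrated females, against 306, 362, 269 and 289 in controls, and 614, 624, 597, 614 and 621 in dehydrated males, against 371, 307, 350.2, 326 and 335 in controls. The groups did not overlap in either set. The rise was 1.14 ± 0.12 in females (n = 4 each; limma adjusted p = 0.000617) and 0.85 ± 0.06 in males (n = 5 each; adjusted p = 3.70e-07). With replicate 5 in the fit, the female value was 0.97 (adjusted p = 0.237). Thbd, the thrombomodulin gene, fell in males by 0.94 ± 0.20 (adjusted p = 0.00474), with signals of 64.8, 47.7, 55.2, 50.1 and 59.0 in dehydrated males, against 177, 143, 108, 101 and 62.3 in controls, so that 1 control array lay within the dehydrated range. In females Thbd had -0.47 ± 0.16 (adjusted p = 0.136). The second Thbd probe set did not pass in males, at -0.74. Of 13 genes on the protein C list, 8 were tested in females, of which 1 rose and 0 fell, and 6 in males, of which 1 rose and 1 fell.

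**Figure D2:**
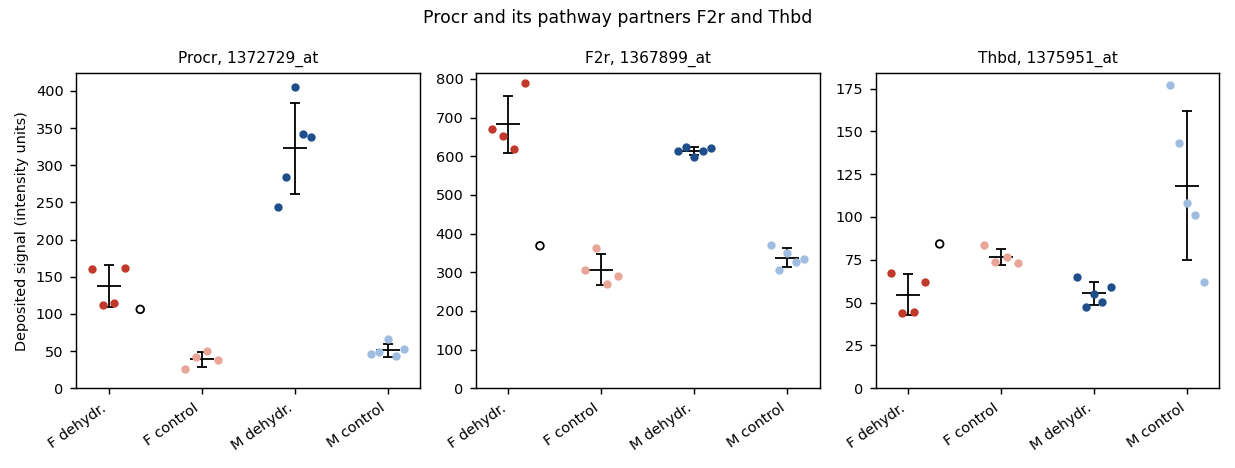
Deposited signal (intensity units) of Procr, F2r and Thbd on each array, with group mean and SD as black bars and dehydrated female replicate 5 as an open circle. Dehydrated points of Procr and F2r lie above all their controls in both sets, and the male Thbd values of 47.7 to 64.8 with dehydration lie below 4 of the 5 male controls.

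Procr and Thbd are also made by endothelium, and markers of vascular and meningeal cells were read on the same arrays. The summed signal of 9 endothelium markers was 1852 to 2212 on dehydrated female arrays and 1945 to 2126 on their controls, and 1796 to 2531 on dehydrated male arrays and 2084 to 2753 on theirs. Of the 9, 0 passed the test in either set, and the ranges overlapped in both. Pecam1, a defining marker, was dim: its lowest value on the arrays used was 30.9, under the lowest array median of 36.1. The lowest values of Cldn5 and Slco1a4, also on the list, were 502 and 460. The 10 markers of mural cells and meninges summed to 1495 to 1819 on dehydrated and 2128 to 3243 on control female arrays, and to 1528 to 3734 on dehydrated and 2970.0 to 6795 on control male arrays. Of these 10, 3 fell and 0 rose in females, and 9 fell and 0 rose in males. Blood markers, 3 measured, summed to 761 to 1719.8 on dehydrated and 1329 to 2485 on control female arrays, and to 770.3 to 1108 on dehydrated and 1607 to 2158 on control male arrays, and 1 of 3 fell in females, 2 of 3 fell in males and 0 rose in either set. The 7 oligodendrocyte markers summed to 3705 to 6299 on dehydrated and 6449 to 9119 on control female arrays, without overlap, and to 7060.0 to 12021 on dehydrated and 8019 to 10187 on control male arrays. Of these, 4 fell and 0 rose in females, and 0 passed in males. The part of these cells in the values of the 10 genes, F2r and Thbd was not tested.

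Sorcs1 encodes a sorting receptor of the VPS10P-domain family, which moves other membrane proteins between the Golgi, endosomes and cell surface. Its signal (1382433_at) was 179, 153, 192 and 153 in dehydrated females, against 65.5, 75.0, 94.2 and 72.6 in control females. Male signals were 119, 123, 138, 167 and 151 with dehydration and 104, 61.9, 83.7, 104 and 129 without. The female groups were separate, whereas in males control replicate 5 lay above 2 dehydrated arrays, so Sorcs1 was the only one of the 10 genes whose main probe set overlapped between groups. Its log2 fold change was 1.08 ± 0.14 in females and 0.53 ± 0.15 in males, ranks 103 and 529 of the probe sets tested. Of 8 tested sorting receptors and retromer subunits, 0 rose and 1 fell in females, and 1 rose and 0 fell in males. Sorl1, another receptor of the family, fell in females by 0.51 ± 0.11 (adjusted p = 0.0364) and had -0.23 ± 0.08 in males (adjusted p = 0.0644). That female call held for 2 of 7 Sorl1 probe sets and was lost in 9 of the 18 alternative fits, among them those without any 1 array other than control replicate 2 or dehydrated replicate 3. Vps35, a retromer subunit, rose in males by 0.23 ± 0.05 (adjusted p = 0.00806), a call lost with quantile normalization and in one fit of all groups, and had 0.22 ± 0.12 in females (adjusted p = 0.344).

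Oacyl, a membrane protein annotated by its likeness to O-acyltransferases, had the widest gap between the sets. Probe set 1384970_at read 823, 844, 709.7 and 488 on dehydrated female arrays and 87.0, 46.2, 70.6 and 88.9 on control female arrays. In males the signals were 232, 226, 223, 188 and 269 with dehydration, against 42.1, 41.0, 47.5, 47.5 and 70.6 in controls. Every dehydrated female array exceeded every dehydrated male array, a separation not counted over all probe sets, and replicate 4 was the lowest of the dehydrated females. The log2 fold change was 3.19 ± 0.21 in females, rank 4, and 2.07 ± 0.13 in males, rank 7.

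Tent5a (formerly Fam46a) encodes a noncanonical poly(A) polymerase, an enzyme that lengthens the tails of messenger RNAs. Its probe set with the highest mean, 1394940_at, read 781, 709, 709 and 761 in dehydrated females and 339, 314, 346 and 373 in control females. The male values were 512, 562, 503, 602 and 529.5 with dehydration and 185, 260.0, 338, 209.7 and 244 without. These groups did not overlap, and the log2 fold change was 1.10 ± 0.10 in females and 1.14 ± 0.12 in males.

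The other 2 Tent5a probe sets were much dimmer and their groups overlapped. Probe set 1394695_at read 57.3, 83.2, 62.0 and 58.4 in dehydrated females, against 59.8, 23.5, 45.9 and 57.1 in controls, and 54.5, 56.9, 45.5, 59.2 and 64.2 in dehydrated males, against 23.0, 28.4, 32.9, 36.7 and 50.4 in controls. Its log2 fold changes were 0.49 ± 0.24 and 0.65 ± 0.16, the same sign as those of the brighter probe set but smaller. Probe set 1381932_at ran from 26.7 to 80.6 on dehydrated and 14.0 to 53.7 on control female arrays, with a log2 fold change of 0.34 ± 0.36. In males it ran from 4.20 to 22.8 with dehydration and from 3.40 to 27.2 in controls, below the filter on low signals. It was the only one of the 12 probe sets that failed this filter, and only in males. Of 10 tested poly(A) and terminal nucleotidyltransferases, 0 passed in females, where Tut1 had the smallest p at -0.68 ± 0.23 (adjusted p = 0.139). In males 0 rose and Tut4, which adds uridines to RNA ends, fell by 0.52 ± 0.08 (adjusted p = 0.000814).

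Slc45a1 encodes a proton-coupled sugar transporter of the brain. Its signal (1384305_at) was 531, 514, 685 and 594 in dehydrated females, against 346, 448, 319 and 326 in control females. In males it was 984, 926, 968, 970.2 and 1004 with dehydration, against 518, 522, 529, 519 and 589 in controls. The groups were separate in each set, although the lowest dehydrated female array was only 1.15 times the highest female control. Dehydrated females lay near or above the level of the control males. The log2 fold change was 0.69 ± 0.13 in females, the lowest of the 10 genes there, and 0.85 ± 0.05 in males, ranks 498 and 122. Of 8 tested relatives and glucose transporters, 0 passed in females, with Slc2a6 at 0.26 ± 0.15 (adjusted p = 0.353). In males 2 rose and 0 fell. Slc2a6, a hexose transporter of lysosomes, rose by 0.61 ± 0.11 (adjusted p = 0.00241), and Slc2a13, a proton-coupled inositol transporter, rose by 0.31 ± 0.05 (adjusted p = 0.00115) on 1 of its 2 probe sets.

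Arhgdib encodes a GDP-dissociation inhibitor, which holds small GTPases inactive in the cytosol and is best known from leukocytes. Probe set 1373881_at read 641, 566, 509 and 621 in dehydrated females and 185, 178, 140.4 and 161 in control females. Male arrays read 758, 706, 683, 704 and 756 with dehydration and 158, 175, 169.7, 173 and 197 in controls. All dehydrated males lay above all dehydrated females, a separation not counted over all probe sets, while the control ranges overlapped. On the log2 scale the fold change was 1.78 ± 0.12 in females and 2.01 ± 0.07 in males.

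Because leukocytes carry much Arhgdib, their markers were read beside it. The 11 microglia and macrophage markers summed to 771 to 959.7 on dehydrated female arrays and 991 to 1239 on control female arrays, and to 840.3 to 1118 on dehydrated male arrays and 1025 to 1536 on control male arrays. Of those tested, 0 of 10 passed in females and, in males, 5 of 9 fell and 0 rose. The 7 measured lymphocyte markers summed to 171 to 223 on dehydrated and 159 to 182 on control female arrays, and to 170.1 to 223 on dehydrated and 115 to 138 on control male arrays. Of these, only 2 were tested in females and 3 in males, and in each set 1 rose and 0 fell. That 1 was Lck, a kinase of T cells, by 0.53 in females (adjusted p = 0.0412) and 0.73 in males (adjusted p = 0.000359). Lck had the highest mean of the list in each group, 112 and 75.9 on dehydrated and control female arrays and 119 and 69.1 on male ones. Cd3d, a subunit of the T cell receptor complex, averaged 3.76 and 1.87 on dehydrated and control female arrays and 1.02 and 0.900 on dehydrated and control male arrays. Cd3g, another subunit, averaged 7.61 and 15.2 on the female and 6.10 and 11.3 on the male arrays. Cd3e, also a subunit, averaged 22.2 and 15.6 on the female and 18.8 and 17.2 on the male arrays. For Cd4 these means were 41.9 and 46.4 on the female and 30.5 and 18.4 on the male arrays. Cd8a averaged 13.1 and 13.7 on the female and 8.44 and 8.30 on the male arrays, and Cd79b 2.37 and 4.46, and 1.96 and 1.28. The part of leukocytes in the Arhgdib values was not tested.

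Rnf138l1 is named for its likeness to Rnf138, an E3 ubiquitin ligase that acts in DNA repair. Its probe set 1384448_at read 215, 339, 221 and 380.2 in dehydrated females and 93.3, 90.6, 71.2 and 84.8 in control females. In males the values were 244, 303, 291, 313 and 324 with dehydration, against 88.3, 92.5, 81.1, 76.2 and 88.3 in controls. The groups were separate in both sets, and the dehydrated females spread over a wider range than the dehydrated males. On the log2 scale the fold change was 1.65 ± 0.18 in females and 1.71 ± 0.09 in males. None of the 3 probe sets of Rnf138 itself passed in either set: 1382379_at had -0.02 in females and -0.14 in males, 1387201_at had 0.53 (adjusted p = 0.0683) and 0.15, and 1389258_at had -0.42 and -0.12. Signals of 1387201_at were 57.9, 74.3, 65.6 and 73.0 in dehydrated females, against 44.6, 49.1, 41.6 and 44.6 in control females, with no overlap, while in males, at 37.9, 59.3, 60.6, 54.4 and 60.0 with dehydration and 41.2, 49.0, 45.1, 44.3 and 61.3 without, the groups overlapped. Whether the Rnf138l1 probes also bind Rnf138 transcripts was not tested. Of the RNF138 relatives, 0 of 3 passed in females, with Rnf114 at 0.26 ± 0.15 (adjusted p = 0.393), and 0 of 4 in males, with Rnf138 at -0.12 ± 0.09 (adjusted p = 0.362).

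**Figure D3:**
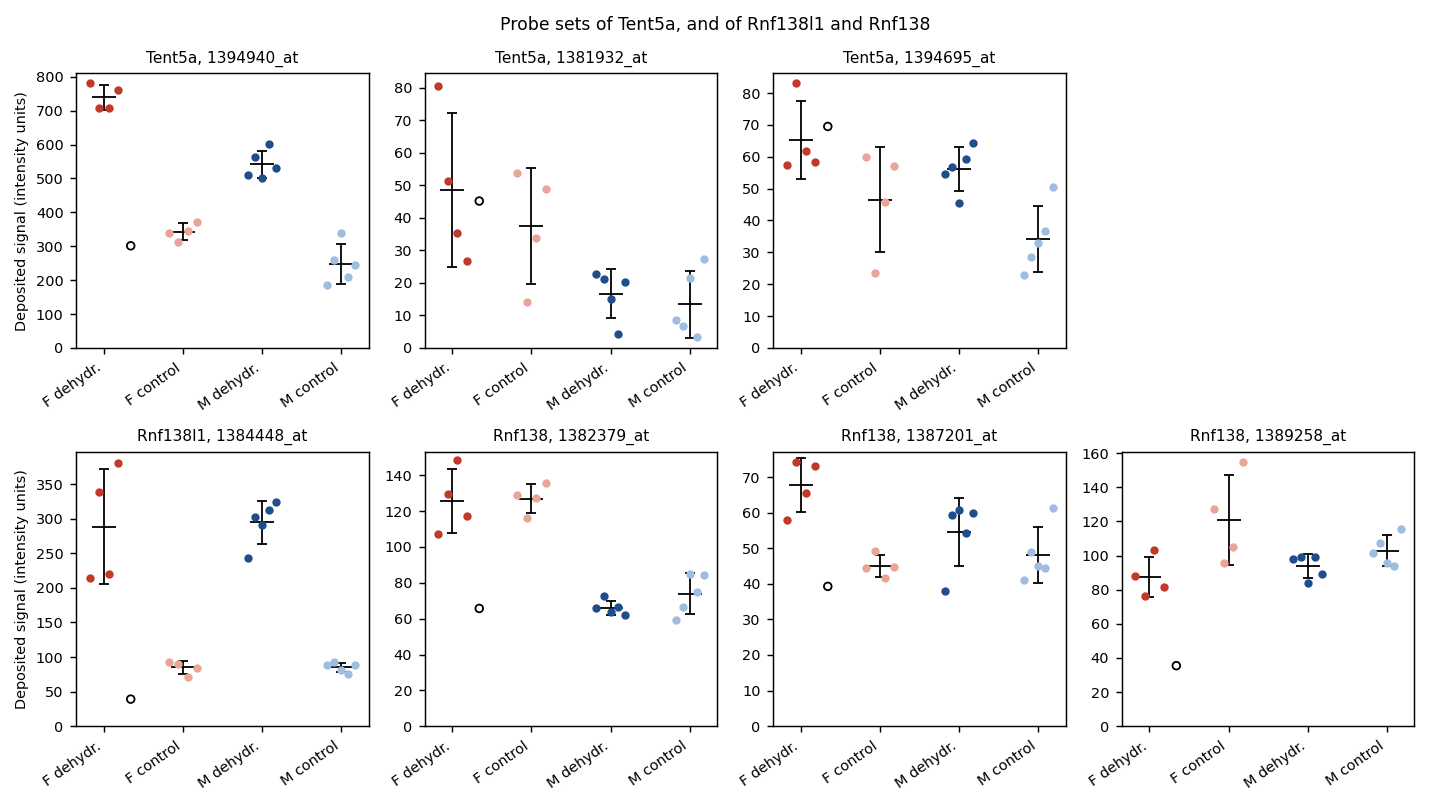
Deposited signal (intensity units) on each array of the 3 Tent5a probe sets (top row) and of Rnf138l1 and the 3 Rnf138 probe sets (bottom row), by group, with mean and SD as black bars and dehydrated female replicate 5 as an open circle. Tent5a 1394940_at and Rnf138l1 separate dehydrated from control arrays in both sets, the other Tent5a probe sets overlap in both, and the Rnf138 ones separate them only for 1387201_at in females.

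**Figure D4:**
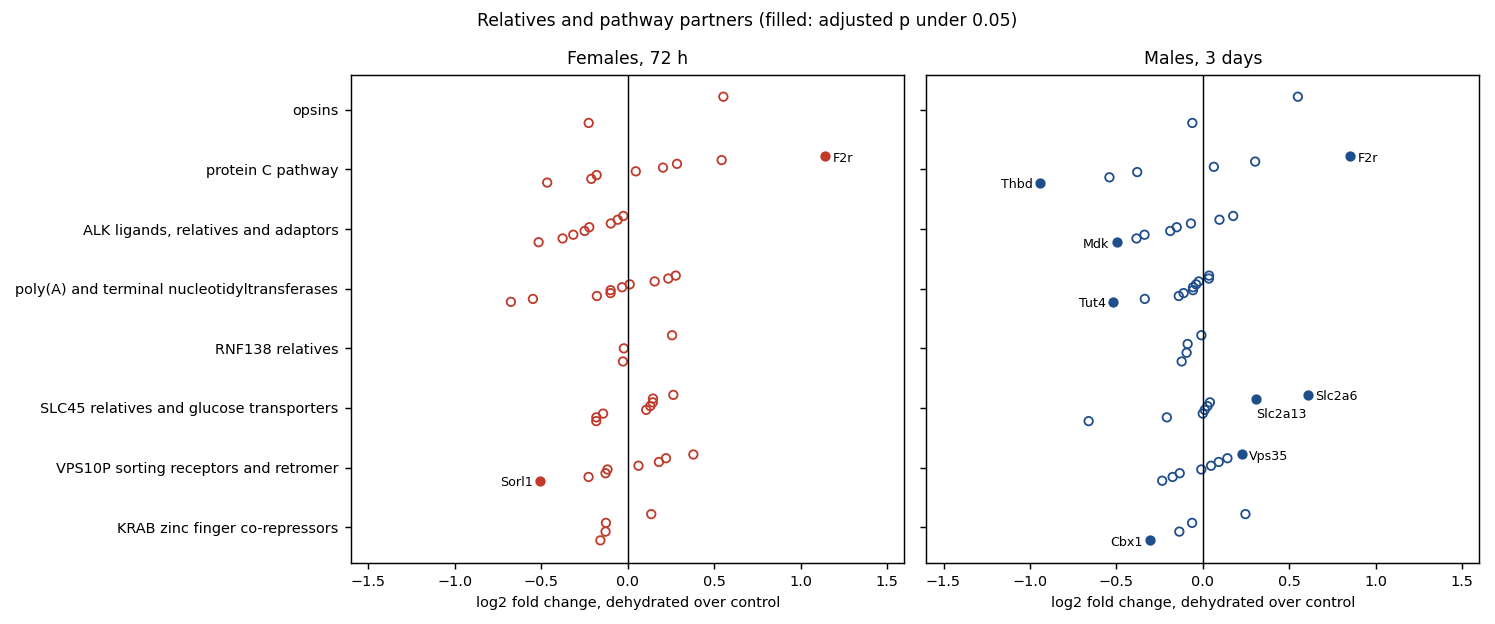
Dehydrated over control log2 fold change of each tested family gene in females and in males, by gene list, with filled points for an adjusted p under 0.05. In females 1 gene (F2r) is filled above 0 and 1 (Sorl1) below it, and in males 4 are filled above and 4 below.

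Over all 8 lists, 71 genes were named, of which 51 were tested in females and 50 in males. In females 1 rose and 1 fell, 3.92% of those tested, and in males 4 rose and 4 fell, 16%, both shares near those of all probe sets given above. At an unadjusted p under 0.05, 7 of 51 passed in females, where 19% of all probe sets did, and 18 of 50 in males, where 31.4% did. Of 51 family genes tested for a difference between the female and male responses, 0 passed, against 0.0322% of all probe sets, and 3 had an unadjusted p under 0.05, as did 10.0% of all probe sets.

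Side by side, the 10 genes kept the same sign in both sets. In females every dehydrated array exceeded every control array for 10 of the 12 probe sets, where 5.31% of all probe sets tested did so. In males the same held for 9 of 12, where 6.82% of all did so. These are the contrasts by which the genes were chosen, and nothing is read from the counts. The median log2 fold change of the 10 main probe sets was 1.67 in females and 1.86 in males, beside -0.03 and -0.04 over all probe sets tested. Oacyl had the highest female value and Giot1 the highest male value. Female minus male, the difference of the log2 fold changes was 1.11 ± 0.25 for Oacyl, 0.57 ± 0.13 for Alk and 0.55 ± 0.22 for Sorcs1, and -0.82 ± 0.24 for Procr and -0.47 ± 0.29 for Giot1. For the other 5 genes it lay between -0.23 and 0.13. In the limma fit of that difference 0 of the 10 passed an adjusted p under 0.05, against 0.0322% of all probe sets. At an unadjusted p under 0.05, 4 of the 10 passed, against 10.0% of all. With array weights 2 of the 10 passed, where 114 of all probe sets did. Without dehydrated female replicate 3, 1 of the 10 passed, where 55 of all did. The genes were chosen by the fold changes that enter this difference, so nothing is read from these counts either. Sex, extraction, labelling and software change together between the sets and cannot be told apart.

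**Figure D5:**
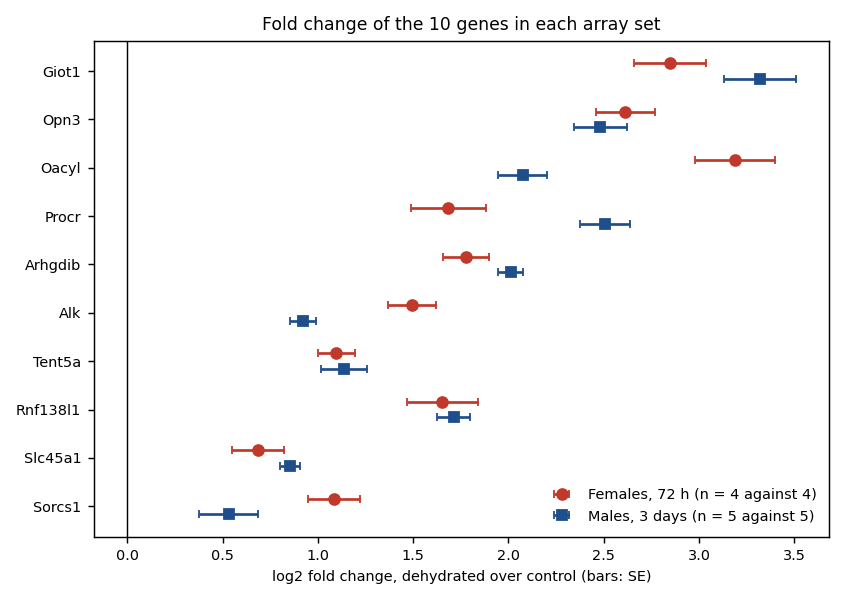
Dehydrated over control log2 fold change of the main probe set of each of the 10 genes in females and in males, with SE as bars. All values are above 0, with Oacyl further right in females (3.19 against 2.07) and Procr further right in males (1.68 in females against 2.51).

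Control females and control males were compared directly. The genes were not chosen by this contrast, but their control signals entered the choice through the dehydrated over control difference. Of the 10 genes, 3 differed between control females and control males in the limma fit, against 27.3% of all probe sets, of which 3223 were higher (14.8%) and 2701 lower (12.4%) in females. Alk averaged 90.2 ± 10.9 in control females and 138 ± 10.2 in control males (SD, n = 4 and 5), a log2 difference of -0.59 ± 0.11 (adjusted p = 0.00239). Slc45a1 averaged 359.8 ± 60.2 in control females and 535 ± 30.4 in control males, a difference of -0.58 ± 0.10 (adjusted p = 0.00184). Tent5a was higher in control females, at 343 ± 24.2 against 247 ± 58.4 in control males, by 0.49 ± 0.14 (adjusted p = 0.0232). The Tent5a call was lost with median centring (adjusted p = 0.101) and without female control replicate 1, 3 or 4 or male control replicate 4 (adjusted p = 0.0508 to 0.062). With that centring 2 of the 10 passed, and 1581 probe sets were higher and 4792 lower in females. Sex, extraction, labelling and software cannot be told apart here either. Of the 7 genes that did not pass, Oacyl had the smallest p, with 73.2 ± 19.8 in control females and 49.7 ± 12.0 in control males, a difference of 0.49 ± 0.20 (adjusted p = 0.079), and it passed without male control replicate 5 (adjusted p = 0.0311) or female control replicate 2 (adjusted p = 0.00813), with array weights (adjusted p = 0.0121) and in one fit of all groups (adjusted p = 0.0445).

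The probe sets with the most alike profile were named for each gene by Pearson r over the 18 arrays, after log2 values were centred within each set. These r values largely carry the difference between dehydrated and control arrays, which all the points share, and are a description. For Giot1 they were Crh (0.981), Arhgdib (0.979) and Vgf (0.977), where Crh is the corticotropin-releasing hormone gene. Opn3 was most like Tnfaip6 (0.988), Caprin2 (0.984) and Rasd1 (0.981). Oacyl was most like Th (0.975), Tnfaip6 (0.971) and Azin1 (0.966), Th being the gene of tyrosine hydroxylase. Procr was nearest to Chac1 (0.971), Rasd1 (0.968) and Giot1 (0.965), and Arhgdib to Tnfaip6 (0.985), Crh (0.982) and Rasd1 (0.980). For Alk the nearest were Slc39a6 (0.980), F2r (0.976) and Tnfaip6 (0.969). Tent5a followed Rasd1 (0.972), Opn3 (0.972) and Tnfaip6 (0.966), and Rnf138l1 followed Arhgdib (0.973), Tnfaip6 (0.969) and Ercc1 (0.968). Slc45a1 was nearest to P4htm (0.973), Sars1 (0.970) and Cldnd1 (0.970), and Sorcs1, with the weakest likeness of the 10, to Emd (0.899), Smyd4 (0.898) and Rgs17 (0.893). Tnfaip6 and Rasd1, a Ras-related protein induced by dexamethasone, came up for several of the genes. Within groups, after each group mean was removed, r between the 10 genes over the same arrays ran from -0.36 to 0.59 over 45 pairs, with a median of 0.06. The highest was between Opn3 and Tent5a (0.59).

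Dehydrated female replicate 5 read low for most of the 10 genes. Its signal was 21.4 for Giot1, 74.0 for Opn3, 63.1 for Oacyl, 93.8 for Alk, 301 for Tent5a, 39.2 for Rnf138l1 and 371 for Slc45a1, each no higher than the highest female control. For Procr (106), Arhgdib (238) and Sorcs1 (122) it was above every female control, and for all 3 below every other dehydrated female array. Against the male controls this array was above all for Procr and Arhgdib, but within their range of 61.9 to 129 for Sorcs1. With it in the female fit the log2 fold changes were 2.22 ± 0.59 for Giot1, 1.86 ± 0.70 for Opn3, 2.52 ± 0.64 for Oacyl, 1.62 ± 0.21 for Procr and 1.53 ± 0.27 for Arhgdib. They were 1.21 ± 0.29 for Alk, 0.84 ± 0.26 for Tent5a, 1.12 ± 0.51 for Rnf138l1, 0.56 ± 0.19 for Slc45a1 and 0.99 ± 0.17 for Sorcs1. All stayed above 0. In that fit 0.0046% of all probe sets passed the threshold, against 2.96% without it. On that array the endothelium markers summed to 8702, the microglia markers to 3619 and the blood markers to 11211, each above the range of every group used. The oligodendrocyte markers, at 21005.5, and those of choroid plexus and ependyma, at 10097, were also above every group. Markers of magnocellular neurons summed to 303 there, against 8019 or more on every array used.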

How the data were processed

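RNA of the rat supraoptic nucleus was measured on Affymetrix arrays of 31099 probe sets, with 19 arrays holding values. The deposited values are linear intensity, and as read from the values each array has a trimmed mean close to 100. Per the submitters' processing notes, GCOS 1.2 and MAS5 made them. Per the labels' protocols, male RNA was extracted with QIAzol and RNeasy columns, and female RNA with Trizol. Background and summary settings are not given in the sources used here. Signals printed are as deposited.

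For the tests, signals were multiplied per array to bring the 2% trimmed mean to 500, and log2(value + 32) was taken, so fold changes of dim probe sets are understated. After 57 control probe sets were removed, those with a mean above the 30th percentile were kept (21729). limma 3.58.1 in R 4.3.3 was run with lmFit and a trended eBayes, with Benjamini-Hochberg adjustment over all probe sets kept. A single symbol was given to 20826 probe sets, several to 436 and none to 9837. Symbols were updated by Entrez ID through RefSeq (GRCr8). Dehydrated female replicate 5 was left out by the rule for the genes. The number of arrays limits the precision, with a median SE of 0.17 on the log2 scale in females and 0.12 in males. The method was tested on simulated data. Tables and plots were made with Python 3.11.15 and matplotlib 3.10.9.

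The 10 genes and all lists were chosen with earlier results of these data known. The main probe set of a gene had its highest mean. From each family list the text names up to 3 rising and 3 falling genes past the threshold, by size, or the one with the smallest p where none passed. Probe sets with the most alike profile were the 3 of highest r. Alternatives were other normalizations, pseudocounts, filters, variance settings, array weights, one fit of all groups, replicate 5 included and each array left out. One of the gene lists fixed for the families is not reported here.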

Additional observations from a re-analysis of the deposited data

Results flagged for a closer look

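Of 48 groups of arrays (12 probe sets in 4 groups), 3 had an array far from the rest by Dixon's criterion, which chance gives in about 1 of 20 groups. The gaps and ranges were taken on the log2 values used for the tests, while the signals printed are as deposited. Opn3 read 1352 on dehydrated female replicate 4, the highest of its group, with 0.962 of the group's range between it and the next array. Oacyl read 70.6 on male control replicate 5, with a gap of 0.735 of the range. Slc45a1 read 589 on the same male control, with a gap of 0.832.

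On dehydrated female replicate 5, which the comparisons leave out, 3 of the 10 genes read above every female control. Procr read 106 there, 2.75 times the mean of the female controls. Arhgdib read 238, 1.43 times that mean, and Sorcs1 read 122, 1.59 times it. The array read as male by Xist and Eif2s3y, and the male controls ran from 43.5 to 65.9 for Procr and 158 to 197 for Arhgdib. For Sorcs1 they ran from 61.9 to 129, so its value on this array lay within them.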

How the results depend on the processing

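No dehydrated over control fold change of the 10 genes and no family gene past the threshold changed sign under the alternatives run. Several female family values that had not passed did change sign with replicate 5. Among them, F5 went from -0.21 to 0.65, Slc2a1 from -0.14 to 0.30 and Mdk from -0.52 to 0.15. Slc2a13 went from 0.11 to -0.19 and Vps35 from 0.22 to -0.06. The median log2 fold change of the 10 genes in females, 1.67 as reported, was 1.37 with replicate 5 and 1.55 to 1.76 with single arrays left out; in males it was 1.86, and 1.84 to 1.89 with single arrays left out. The number of family genes past the threshold in females, 2 as reported, was 1 with arrays centred on their median, 1 without the variance trend, 4 with array weights, 5 in one fit of all groups, 0 with replicate 5, and 1 to 2 with single arrays left out. In males it was 8, and between 6 and 11 under the alternatives, and for the difference between sets it was 0 throughout. The cause was not tested. Over all probe sets, the 643 called in females became 290 without the trend, 1709 with array weights, 2322 in one fit, 1 with replicate 5 and 210.0 to 886 with single arrays left out. The 3846 in males became 3119 without the trend, 4352 with array weights, 2270.0 in one fit and 2839 to 4149 with single arrays left out. The 7 called for the difference became 19 with quantile normalization, 12 with centring, 11 with a pseudocount of 100, 2 without a filter, 114 with array weights, 0 with replicate 5 and 1 to 55 with single arrays left out. No paired analysis was possible because the labels give the dehydrated arrays no replicate numbers that the controls share: their numbers here follow deposit order and only name the arrays. The replicate block was therefore not run. The Giot1 fold change, from dim control signals, was 2.43 to 3.11 in females and 2.80 to 3.67 in males between pseudocounts of 100 and 1, and 2.22 in females with replicate 5.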
